A study of Sus scrofa domesticus with 150 samples.

Results

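The course of 7 genes of the suprabasal epidermis was followed through wound healing in porcine skin: the keratin genes KRT1, KRT10, KRT2 and KRT77, the desmosomal cadherin genes DSG1 and DSC1, and SBSN. They were chosen by symbol, and each symbol matched 1 gene, which gave 7 of the 30461 genes in the count table. KRT2 was named in the table's name column, and the other 6 were identified through the protein named in their description.

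The 6 female Yorkshire-mix pigs carried 12 full-thickness circular excisional wounds each, dressed with Telfa Clear and Tegaderm, and 3 of the 6 animals were sampled on each of 14 days from day 1 to day 21. Each of the 72 wounds was sampled once, as 1 biopsy at its edge and 1 in its center, and the biopsied sites then received a topical antibiotic. Animals 1323, 1324 and 1325 were sampled on days 1, 3, 5, 7, 11, 15 and 21, and animals 1326, 1327 and 1328 on days 2, 4, 6, 9, 13, 16 and 19, so that neighbouring days mostly came from different animals. There were 6 samples per location on 10 days (2 wounds of each of 3 animals) and 3 on days 15, 16, 19 and 21. All animals were wounded, and day 0 was represented by 1 sample of the excised skin of each animal, taken as whole tissue with no edge or center, which served as the untreated control. The wounds of an animal share that animal, and p-values over them measure the spread between samples. The samples fell into 29 states of day and location with 150 samples in all.

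Keratinocytes leave the basal layer of the epidermis, stop dividing and build a new set of proteins as they move outwards. In that program the basal keratin pair gives way to KRT1 and KRT10, and desmosomes take up cadherins that basal cells hold little of. In a full-thickness wound the epidermis of the center is removed, and it is rebuilt by keratinocytes that migrate in from the edge and from remaining appendages. Differentiation of the new sheet follows.

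The genes lie on 4 contigs of the assembly used for counting, whose name is not given in the sources used here. KRT77 (ENSSSCG00025057592, LUXX01048831.1:1908290-1918296, plus strand), KRT1 (ENSSSCG00025057839, LUXX01048831.1:1928836-1934557, plus strand) and KRT2 (ENSSSCG00025058238, LUXX01048831.1:1954987-1962727, plus strand) are neighbours, with gaps of 10539 and 20429 bases and 0 annotated genes between them. They are type II keratins of similar sequence, and how reads shared among such genes were counted is not given in the sources used here, which leaves some uncertainty in the split of their counts. KRT10 (ENSSSCG00025042112) is a type I keratin gene at LUXX01073178.1:1798599-1802962 on the minus strand. DSC1 (ENSSSCG00025004870, LUXX01005737.1:907900-944263, minus strand) and DSG1 (ENSSSCG00025004892, LUXX01005737.1:1105491-1142992, plus strand) share a contig. SBSN (ENSSSCG00025047987) lies at LUXX01045032.1:646862-652609 on the minus strand.

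Total counts ranged from 13133379 to 24895572 per sample, so that 3 counts, the smallest number read as detection, stood for 0.121 to 0.228 CPM (the count of a gene scaled to the total of its library). Levels are given as log2(1 + CPM), and differences between groups as log2 fold changes fitted by edgeR to the counts. The fit compares mean counts, so a single high sample moves it more than it moves a mean of log2 levels. A gene was called at a Benjamini-Hochberg adjusted p below 0.05 in edgeR's quasi-likelihood test over all genes tested. In bulk tissue, fewer cells of a type and less RNA per cell cannot be told apart.

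There were 4 libraries that stood apart from the others of their state. The day 1 center sample of animal 1325 wound A held KRT1 at 12.49, where the other 5 ranged from 5.16 to 6.72, and its mean over the 7 basal keratinocyte genes listed below was 8.40. The day 3 center sample of animal 1324 wound G held KRT10 at 13.38, and the day 3 edge sample of animal 1325 wound G held KRT10 at 3.30, with an adipocyte marker mean of 9.38 and a basal mean of 3.88. The day 2 center sample of animal 1326 wound L had a skeletal muscle marker mean of 10.04. Among all 11175 pairs of libraries, the 2 most alike were the edge and center samples of day 3 wound G of animal 1324 and of day 3 wound G of animal 1325, with a chi-square per gene of 4.78 and 16.1 against a median of 274 for the edge and center of 1 wound. These pairs differed by more than sampling noise and 0 pairs of libraries were identical, so all were kept as separate samples. The 2 day 3 pairs came from the same wounds, and day 3 edge and center values rest on location labels that the likeness of these libraries leaves uncertain. Calls that changed without the 4 libraries are given beside the results of days 1 and 3. The day 1 and day 3 libraries held the highest center or lowest edge levels of these genes. Leaving them out moves the fits in a set direction and gives no independent support. On day 2 all 7 genes were called without the library of animal 1326 wound L as they were with it, both against day 0 skin (-8.04 to -11.77) and between edge and center (7.81 to 10.34).

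In skin of day 0 the 7 genes made up 4.46% of all counts on average, from 2.15% to 6.65% in the 6 animals. KRT10 and KRT1, the partner keratins that form the filaments of suprabasal cells, were the most abundant per length, with 8963 ± 2823 and 5802 ± 2101 FPKM (fragments scaled to transcript length and library size; SD, n = 6). KRT2, a type II keratin of the uppermost living layers, stood at 2430 ± 1030 FPKM. KRT77, a type II keratin that in human skin has been described in sweat gland ducts, had 701 ± 218 FPKM. The cadherins DSG1 and DSC1, which join neighbouring cells in the upper layers, had 431 ± 91.7 and 350 ± 88.3 FPKM, and SBSN, which encodes the secreted protein suprabasin, had 209 ± 48.7 FPKM. Over the 6 animals the ranges of neighbours in that order overlapped, except those of KRT2 and KRT77.

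KRT2 varied most between animals. Its day 0 level, as log2(1 + CPM), was 11.17 in animal 1325 and 11.05 in animal 1326, and it lay between 12.56 and 12.69 in the other 4 animals. Animal 1326 was the lowest of the 6 for every one of the 7 genes, with KRT10 at 13.12 against 14.03 to 14.75 and SBSN at 8.75 against 9.46 to 9.92.

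**Figure D1:**
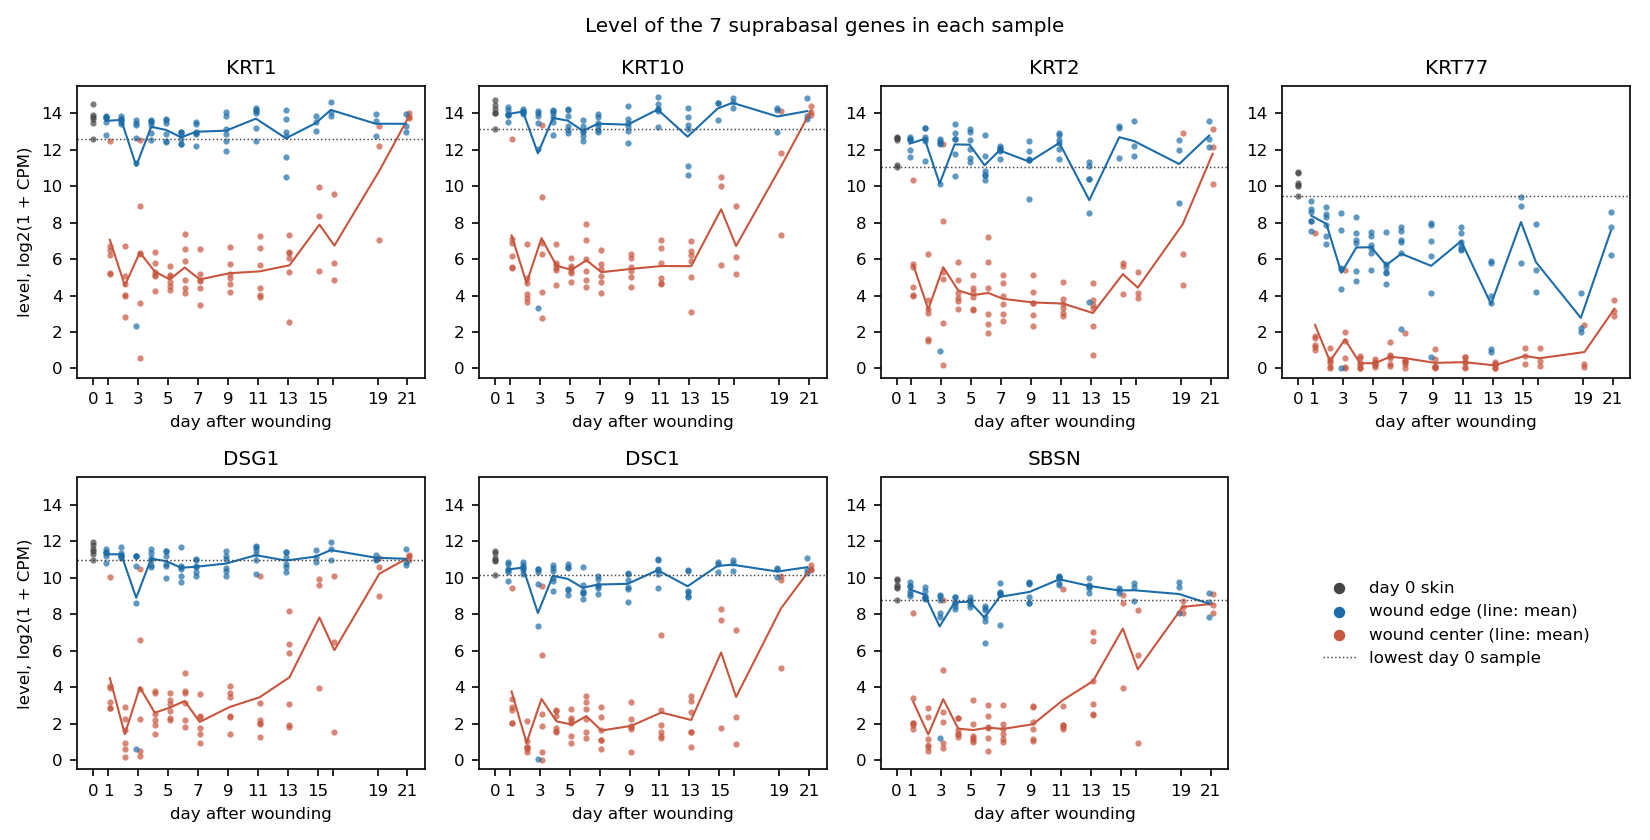
Level of each gene, as log2(1 + CPM), in each sample against the day after wounding. Dark points are day 0 skin, blue points the wound edge and red points the wound center, lines join the means of each location, and the dotted line marks the lowest day 0 sample. KRT1, KRT10, KRT2, DSG1, DSC1 and SBSN stay near the day 0 level in most edge samples. On day 21 their center ranges all overlap day 0. Single center samples do so earlier, for KRT10, KRT2 and SBSN on day 3 and for SBSN on days 11 and 15. On day 19 this holds for KRT1, KRT10, KRT2 and DSG1. The KRT2 edge mean falls to 9.23 on day 13. KRT77 lies below its lowest day 0 sample in all 72 edge and all 72 center samples.

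In the wound center all 7 genes were called lower than in day 0 skin on days 1, 2, 4, 5, 6, 7, 9 and 13, where 32.1%, 29%, 33.9%, 36.3%, 32.2%, 35.8%, 30.6% and 31.2% of all genes tested were called lower. On day 7 KRT10 had a lowest, median and highest level of 4.14, 5.27 and 6.51 in the 6 center samples, against 13.12, 14.14 and 14.75 in day 0 skin. DSG1 had 0.95, 2.04 and 3.62 in the same center samples, against 10.97, 11.53 and 11.97 on day 0. The groups did not overlap for either gene, and the fitted differences were -8.71 ± 0.50 (SE, edgeR adjusted p = 4.81e-09), or 418-fold lower, for KRT10 and -9.46 ± 0.62 (edgeR adjusted p = 1.62e-08), or 702-fold lower, for DSG1. The fitted differences of the other 5 genes on that day lay between -8.08 (SBSN) and -10.71 (KRT77).

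Over the 14 days taken one at a time, the center was lower than day 0 skin in 76 of the 98 tests of a gene on a day, and higher in 0. The background is high: 59.7% of all gene tests in this comparison were called in either direction and 29.9% were called lower. KRT77 was lower on all 14 days, KRT1, KRT10, KRT2 and DSC1 on 11, SBSN on 10 and DSG1 on 8. The lowest state means of KRT1, KRT10, DSG1, DSC1 and SBSN were on day 2, at 4.55, 4.68, 1.41, 0.94 and 1.40, and those of KRT2 and KRT77 on day 13, at 3.04 and 0.17. The 7 genes together made up 0.00924% of the counts in the center on day 2 and 0.0105% on day 7.

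Detection differed between the genes in the center. KRT1, KRT10 and SBSN had more than 3 counts in all 72 center samples, KRT2 and DSC1 had 3 or fewer in 1 sample each and DSG1 in 2. KRT77 had 3 counts or fewer in 28 of 72 center samples and 0 counts in 9, so its level there was close to what this depth can detect.

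On day 3 KRT77 was the only one of the 7 genes called lower in the center, where 30.7% of all genes were, with a log2 fold change of -7.43 ± 1.61 (edgeR adjusted p = 0.00179), and KRT1 missed the threshold with -3.78 ± 1.56 (adjusted p = 0.0524). The 6 center samples of that day spread from 0.57 to 12.52 for KRT1. Without the library of animal 1324 wound G all 7 genes were called (32.1% of all genes), with KRT1 at -6.86 ± 1.36 (edgeR adjusted p = 0.000843). Over the 14 days 82 of 98 tests were called without the 4 libraries, where 30.1% of all gene tests were called lower.

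At the wound edge most of these genes stayed close to the skin of day 0. Of 98 tests against day 0, 33 were lower and 1 was higher, where 20.7% of all gene tests were called lower, 22.5% higher and 43.1% either way. This comparison and that of the center use the same 6 day 0 samples. KRT2 was called on 0 of 14 days in edgeR, with 0 to 1 days in the other analyses tried, but its level did not hold throughout. Its lowest edge mean was 9.23 on day 13, or -2.89 from the day 0 mean. Against their own day 0 skin the 6 edge samples of that day differed by 0.05 and -7.40 (animal 1326), -4.09 and -2.23 (1327), and -1.23 and -2.16 (1328). KRT1 and KRT10 were called lower on days 6 and 7 only. On day 6 KRT10 had a lowest, median and highest level of 12.50, 12.99 and 13.66 at the edge, which overlaps the day 0 range, and its difference was -1.15 ± 0.23 (edgeR adjusted p = 0.000958).

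DSC1, DSG1 and SBSN were each called at the edge on several days, where 20.7% of all gene tests at the edge were called lower. DSC1 was lower on 8 days (1, 2, 4, 5, 6, 7, 9 and 13) with log2 fold changes of -0.56 to -1.52, and DSG1 on days 4, 5, 6 and 7 with -0.52 to -0.92. On day 7 DSC1 had 9.11, 9.57 and 10.11 as lowest, median and highest edge level, and every one of these 6 samples was below every day 0 sample (10.12 to 11.45). SBSN was lower on days 2, 4, 5 and 6 (-0.57 to -1.66), and was the single gene called higher, on day 11, with 9.60 to 10.10 at the edge against 8.75 to 9.92 on day 0 (0.50 ± 0.17, edgeR adjusted p = 0.0278). Without the day 3 library of animal 1325 wound G, DSC1 (-1.12, edgeR adjusted p = 0.0462) and SBSN (-1.004, edgeR adjusted p = 0.00613) were called lower on day 3 as well. With all 150 samples in one fit, 11 of the 98 edge tests were called instead of 34. All 11 were KRT77, so the calls of KRT1, KRT10, DSG1, DSC1 and SBSN at the edge were all lost in that analysis. The share of all genes called in that fit is not given here. Whether the loss is particular to these genes therefore cannot be read from it.

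KRT77 lay below its day 0 range throughout at the edge. On all 14 days every edge sample was below every day 0 sample (9.45 to 10.80), and 13 of 14 days were called, the exception being day 15 (-1.66 ± 0.60, edgeR adjusted p = 0.0877). On day 1 its 6 edge samples had a lowest, median and highest level of 7.53, 8.35 and 9.19, and the difference from day 0 was already -1.88 ± 0.28 (edgeR adjusted p = 0.00015), or 3.69-fold lower. On day 13 the edge samples stood at 0.89, 3.78 and 5.91, and on day 19 the 3 samples held 1.99, 2.21 and 4.12 in animals 1326, 1327 and 1328. The day 19 difference of -7.05 ± 0.71 (edgeR adjusted p = 6.42e-05) corresponds to 133-fold less. On day 21, in the other 3 animals, the edge samples held 6.25, 8.60 and 7.76, which is 4.78-fold lower than day 0 (-2.26 ± 0.47, edgeR adjusted p = 0.006). The lowest edge means of KRT77, 2.77 on day 19 and 3.54 on day 13, both came from animals 1326, 1327 and 1328. Within these animals the difference of level from their own day 0 skin was -7.46, -7.82 and -5.92 on day 19, and on day 2 it had been -1.56 and -0.60, -3.20 and -2.79, and -1.71 and -1.58 in the 2 wounds of each.

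**Figure D2:**
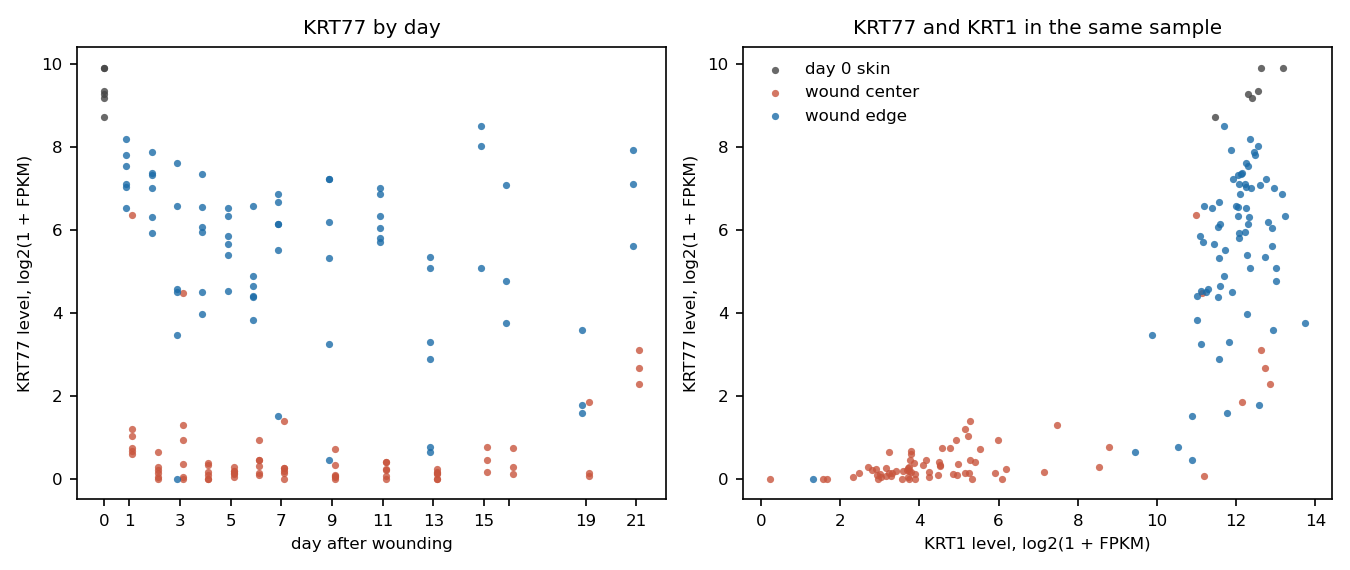
KRT77 level per length, as log2(1 + FPKM), against the day after wounding (left) and against the KRT1 level of the same sample (right), one point per sample. Edge samples with KRT1 in the range of day 0 skin hold KRT77 below the 6 day 0 samples, and the 3 center samples of day 21 hold little KRT77 although KRT1 is at its day 0 level.

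The ratio of KRT77 to KRT1 within a sample, which depends little on the scaling of the library, was also below that of day 0 skin. The mean difference of the log2(1 + CPM) levels of KRT77 and KRT1 was -3.45 in day 0 skin. At the edge it was -9.10 on day 13, -10.65 on day 19 and -5.89 on day 21. In the center it was -4.32 on day 7, when both genes were low, -9.95 on day 19 and -10.58 on day 21. In the day 19 center KRT77 stood at 0.08 and 0.22 in animals 1326 and 1327, so the difference there mostly gives the KRT1 level. The ratio of KRT1 to its partner KRT10 moved little: the same difference was -0.45 in day 0 skin, -0.40 in the center on day 7 and -0.29 in the center on day 21.

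Within the same day, the edge held more of these transcripts than the center in nearly all wounds. The edge sample was the higher one in 70 of 72 wounds for KRT1, KRT10, KRT2 and DSC1, in 71 for KRT77 and in 69 for DSG1 and SBSN. The median difference of level between edge and center of a wound was 7.56 for KRT1, 7.84 for KRT10, 7.71 for KRT2, 6.13 for KRT77, 7.83 for DSG1, 7.81 for DSC1 and 6.81 for SBSN. In the test within days the edge was higher in 67 of 98 gene and day combinations and lower in 0, where 12.5% of all gene tests were called higher at the edge and 23.5% either way. With the wound as a block, the number was 70, where 13.6% of all gene tests were called higher.

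On days 2, 4, 5, 6, 7, 9 and 13 all 7 genes were called higher at the edge, where 17.8%, 16.4%, 20.3%, 10.3%, 20.4%, 17.3% and 16.6% of all genes were. The differences were largest on day 2, from 7.97 (SBSN) to 10.49 (DSC1), and lay between 6.14 (KRT2, day 6) and 9.07 (KRT77, day 4) on days 4 to 9. On day 7, for example, SBSN had 7.38, 9.14 and 9.70 as lowest, median and highest level at the edge and 1.00, 1.54 and 3.00 in the center, without overlap (7.65 ± 0.58, edgeR adjusted p = 5.65e-07, 201-fold).

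Days 1 and 3 depended on the libraries that stood apart. On day 1 the differences lay between 3.60 and 4.53, and 6 genes were called (24% of all genes), with DSC1 missing the threshold (3.60 ± 1.39, edgeR adjusted p = 0.0503). With the wound as a block DSC1 was called too (7.50, edgeR adjusted p = 0.00305, with 23.6% of all genes called higher). Without the center library of animal 1325 wound A all 7 were called, between 7.36 and 8.06 (25% of all genes). On day 3 edgeR called 0 of the 7 genes (2.03 to 3.85, 1 at an unadjusted p below 0.05) and 0 of all 14581 genes tested (0%), and DESeq2 called 0 of the 7. Without the 2 libraries of day 3 named above, all 7 were called on that day, between 5.71 and 7.01, where 13.2% of all genes were called higher. These 2 held the highest center and the lowest edge levels of the day, and the libraries most like them were kept. That fit is therefore no independent test of edge against center.

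**Figure D3:**
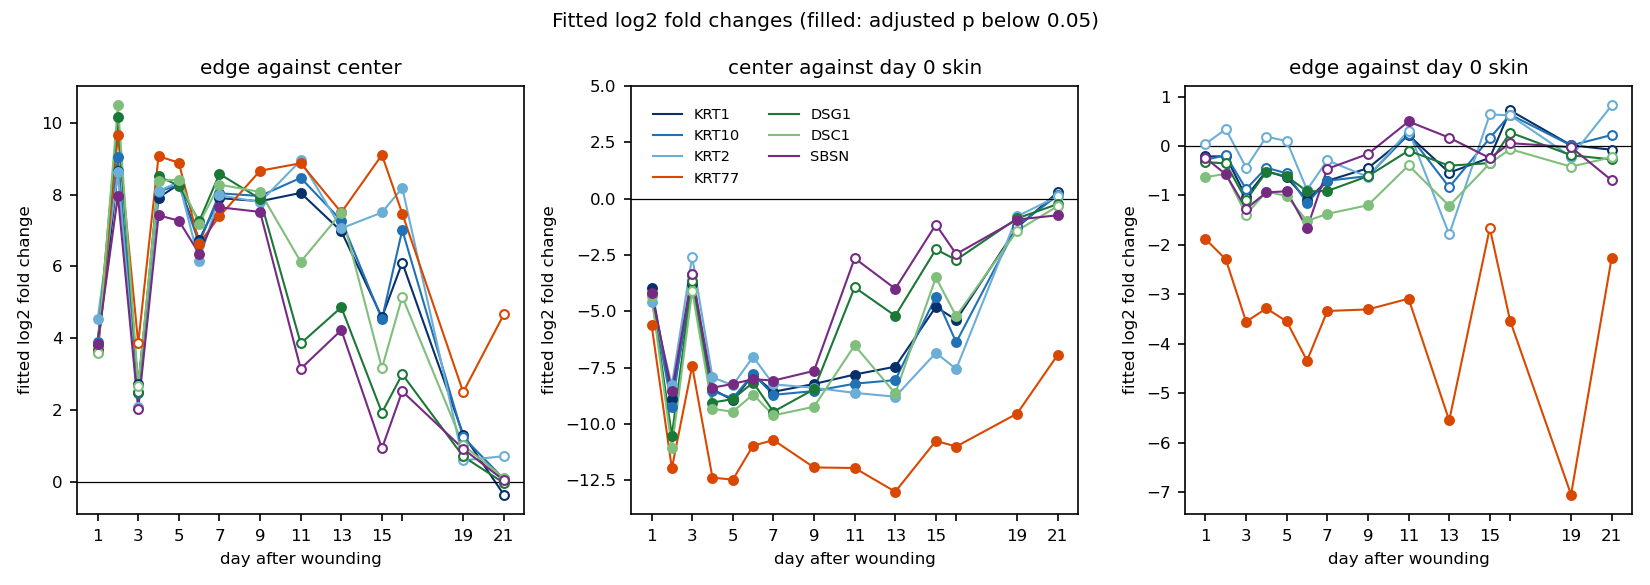
Fitted log2 fold change of each gene on each of the 14 days for the edge against the center (left), the center against day 0 skin (middle) and the edge against day 0 skin (right). Filled points passed an edgeR adjusted p of 0.05 and open points did not. In the center the fitted values of DSG1 and SBSN lie nearer to 0 from day 11, on day 11 through the single sample of animal 1323 wound C. KRT1, KRT10 and KRT2 stay low until day 13, and KRT77 stays below -5 throughout.

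From day 11 the fitted differences of the genes were no longer alike, on day 11 itself through 1 center sample. On day 11 KRT1, KRT10, KRT2 and KRT77 were still higher at the edge by 8.05 to 8.95, and DSC1 by 6.13, where 20.6% of all genes were called higher, whereas DSG1 differed by 3.85 ± 1.64 (edgeR adjusted p = 0.0752) and SBSN by 3.15 ± 1.47 (edgeR adjusted p = 0.102). A single center sample stood apart on this day. In animal 1323 wound C, DSG1 stood at 10.08 and SBSN at 9.36, while in the other 5 center samples DSG1 ranged from 1.25 to 3.14 and SBSN from 1.69 to 2.99. That sample held KRT1 at 7.27, KRT10 at 7.02, KRT2 at 3.81 and 0 counts of KRT77. Its basal marker mean was 9.60, against 3.39 to 4.67 in the other 5. With the replicates of number 3 left out (this center sample and the edge sample of animal 1325 wound C), DSG1 (9.42) and SBSN (8.20) were called on day 11, and they were also called with the wound as a block (8.79, edgeR adjusted p = 0.00227, and 7.64, edgeR adjusted p = 0.00255, with 23.9% of all genes called higher).

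On day 13 center samples fell into a wide range for DSG1, with a lowest, median and highest level of 1.81, 4.46 and 8.19, and for SBSN, with 2.45, 3.71 and 7.05. KRT10 ranged from 3.12 to 7.01 and KRT2 from 0.72 to 4.70 in the same samples. The fitted differences from day 0 skin were -5.20 for DSG1 and -4.00 for SBSN, against -8.05 for KRT10 and -8.79 for KRT2, and all 7 genes were called. The highest DSG1 sample of that day, animal 1326 wound J, held KRT10 at only 5.04.

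On day 15 the 3 center samples held DSG1 at 9.91, 9.60 and 3.95 and SBSN at 9.07, 8.61 and 3.95 in animals 1323, 1324 and 1325. KRT10 stood at 10.49, 10.03 and 5.68 in these samples and KRT2 at 5.81, 5.63 and 4.10. For each of these 4 genes the sample of animal 1325 was the lowest. Against day 0 skin DSG1 (-2.25 ± 0.92, edgeR adjusted p = 0.0622) and SBSN (-1.15 ± 0.78, edgeR adjusted p = 0.237) missed the threshold, and KRT10 (-4.35 ± 0.93, edgeR adjusted p = 0.0033), KRT2 (-6.85 ± 0.70, edgeR adjusted p = 4.6e-05) and DSC1 (-3.50 ± 1.08, edgeR adjusted p = 0.0209) were called lower, as were KRT1 and KRT77 (27% of all genes). At the edge 4 genes were called higher than in the center (7.55% of all genes). Among them were KRT1 and KRT10 (adjusted p = 0.0439 and 0.0492), calls that were lost with the wound as a block (0.0753 and 0.0841).

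On day 16, in the other 3 animals, DSG1 stood at 10.09, 1.51 and 6.47 in animals 1326, 1327 and 1328, KRT10 at 8.91, 5.16 and 6.10 and KRT2 at 5.30, 3.87 and 4.13. The wounds thus spread far more in DSG1 than in KRT2. KRT10 (7.02), KRT2 (8.19) and KRT77 (7.47) were called higher at the edge, where 4.21% of all genes were. KRT1 missed the threshold (6.11 ± 1.49, edgeR adjusted p = 0.0519) and passed it with the wound as a block (7.59, edgeR adjusted p = 0.0299).

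On day 19 the 3 wounds of the same animals were at different levels. KRT10 stood at 7.33 in animal 1327, 11.85 in animal 1326 and 14.10 in animal 1328, and KRT2 at 4.59, 6.26 and 12.90 in that order. DSG1 spread less, with 8.98, 11.09 and 10.59, and SBSN least, with 8.09, 8.74 and 8.37. In animal 1328 KRT10 lay within the day 0 range and KRT2 above it, and in animals 1326 and 1327 both lay below every day 0 sample. Against day 0 skin SBSN was called lower (-0.93 ± 0.25, edgeR adjusted p = 0.0124) and so was KRT77 (-9.54 ± 1.20, edgeR adjusted p = 0.000163), where 21.1% of all genes were. KRT2 was not, at -0.79 ± 1.29 (edgeR adjusted p = 0.659), a value that rests on animal 1328: without it the difference was -6.41 ± 0.82 and was called (edgeR adjusted p = 0.000301). Edge and center did not differ on day 19 in edgeR for any of the 7 genes (0.59 to 2.50, 0 at an unadjusted p below 0.05) or of the 14413 tested (0%), and DESeq2 called 0 of the 7. With 3 samples per location the errors were wide, up to 1.74 (SE) for KRT2.

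On day 21 the ranges of KRT1, KRT10, KRT2, DSG1, DSC1 and SBSN in the 3 center samples overlapped those of day 0 skin. KRT1 stood at 13.75, 14.01 and 13.80 in animals 1323, 1324 and 1325, KRT10 at 13.93, 14.08 and 14.42, and KRT2 at 10.10, 12.13 and 13.12. DSG1 stood at 11.18, 11.24 and 10.95, DSC1 at 10.42, 10.69 and 10.46, and SBSN at 9.11, 8.09 and 8.50. KRT2 in animal 1323 and SBSN in animals 1324 and 1325 lay below every day 0 sample. The fitted differences from day 0 lay between -0.33 and 0.28 for KRT1, KRT10, KRT2, DSG1 and DSC1, with SE of 0.19 to 0.55, and SBSN was called lower by a narrow margin (-0.74 ± 0.27, edgeR adjusted p = 0.04996), a call that was lost without either of 2 of the 3 samples (adjusted p = 0.142 and 0.189). Together the 7 genes made up 4.21% of the counts, against 4.27% at the edge.

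KRT77 was the one gene of the 7 whose center samples did not overlap day 0 skin on day 21, where 20.7% of all genes were called lower. Its counts were 143, 111 and 240 in the 3 samples, or levels of 3.17, 2.89 and 3.76, all below every day 0 sample. The difference from day 0 was -6.93 ± 0.40 (edgeR adjusted p = 2.56e-06), or 122-fold lower. The edge samples of the same wounds held 6.25, 8.60 and 7.76, above every center sample, and the difference between edge and center was 4.66 ± 0.62 (edgeR adjusted p = 0.0921), where 0.0684% of all genes were called. With the wound as a block KRT77 passed (4.40, edgeR adjusted p = 0.0188, with 0.383% of all genes called higher), and DESeq2 called it as well. A list of 9 hair follicle genes, found as 10 rows in the table, was also lower in the center on day 21 for 10 of 10 rows, with a median of -10.61. The part of appendages in the KRT77 values was not tested.

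The late return was then taken as 1 comparison, days 19 and 21 (6 samples) against days 11 and 13 (12 samples), each group holding all 6 animals. In the center all 7 genes were called higher, where 17.1% of all genes were called higher and 36% either way. KRT2 rose by 8.38 ± 0.93, KRT10 by 7.71 ± 0.66, KRT1 by 7.28 ± 0.67 and DSC1 by 6.41 ± 0.81. KRT77 rose by 4.60 ± 1.05, DSG1 by 3.88 ± 0.92 and SBSN by 2.31 ± 0.81 (edgeR adjusted p = 0.0242), and SBSN lost its call without any 1 of 5 animals (adjusted p from 0.0626 to 0.0732). The KRT77 value starts near the detection floor, with 0 to 10 counts in the center samples of days 11 and 13. On day 19 animals 1326 and 1327 still held 1 and 3 counts. The rise of KRT77 rests on animal 1328 on day 19 (70 counts) and the samples of day 21 (111 to 240 counts).

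At the edge 0 of the 7 genes were called in this comparison, with changes between -0.68 and 0.76, 0 at an unadjusted p below 0.05, and 0 in DESeq2, where 5.17% of all genes were called. The change in the center exceeded that at the edge, tested as an interaction, for KRT2 (7.63 ± 1.33), KRT10 (7.40 ± 0.95), KRT1 (7.22 ± 0.98) and DSC1 (6.01 ± 1.18, edgeR adjusted p = 0.00132), where 7.97% of all genes were called in this direction. KRT77 (3.98, edgeR adjusted p = 0.0535), DSG1 (3.89, edgeR adjusted p = 0.0542) and SBSN (2.99, edgeR adjusted p = 0.0989) missed the threshold. These misses depended on single animals. Without animal 1323, DSG1 (5.25, edgeR adjusted p = 0.00702) and SBSN (4.26, edgeR adjusted p = 0.00713) were called. Without animal 1327, KRT77 was called (4.06, edgeR adjusted p = 0.0356). With the animal as a block all 7 passed, where 10.2% of all genes were called in this direction.

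The order of return was read from the signed difference of each center sample from the day 0 skin of the same animal, averaged per animal over its 2 late days (15 and 21, or 16 and 19), so that a value above day 0 offsets one below it. SBSN had the smallest deficit, with a mean difference of -2.22 ± 1.87 on the log2(1 + CPM) scale (SD, n = 6 animals), followed by DSG1 with -2.72 ± 2.16, KRT1 with -3.83 ± 2.07, DSC1 with -3.93 ± 2.51, KRT10 with -3.94 ± 2.03, KRT2 with -4.79 ± 1.99 and KRT77 with -8.85 ± 0.58. DSG1 had a smaller deficit than KRT1, KRT10 and DSC1 in 6 of 6 animals, SBSN a smaller one than DSG1, KRT1, KRT10 and DSC1 in 6 of 6, and KRT77 the largest in 6 of 6, and these counts were the same with absolute differences.

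Of 21 pairs of genes, 13 reached 0.03125 in a two-sided exact sign-flip permutation test, the smallest p that 6 animals allow. After Benjamini-Hochberg adjustment over the 21 pairs this became 0.05048, so that 0 pairs passed. Without day 21, 1 more pair (KRT2 and SBSN) reached the smallest p and 14 pairs passed. KRT1, KRT10 and DSC1 could not be placed in order among themselves: their mean differences were 0.11 or less with SD of 0.53 to 0.85. KRT2 had a smaller deficit than KRT1 in 2 of 6 animals and than DSG1 in 1 of 6. In these counts the values of KRT2 above day 0 in animals 1325 (1.95 on day 21) and 1328 (0.35 on day 19) offset its deficits on the earlier day. With absolute differences, an analysis added after seeing the data, KRT2 was nearer to day 0 than KRT1 or DSG1 in 0 of 6 animals, at a mean distance of 5.17 ± 1.65 against 3.83 ± 2.07 for KRT1 and 2.74 ± 2.13 for DSG1 (SD). In that analysis 17 of the 21 pairs reached the smallest p of the exact permutation test, 0.03125, which became 0.0386 after adjustment, so that 17 pairs passed.

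**Figure D4:**
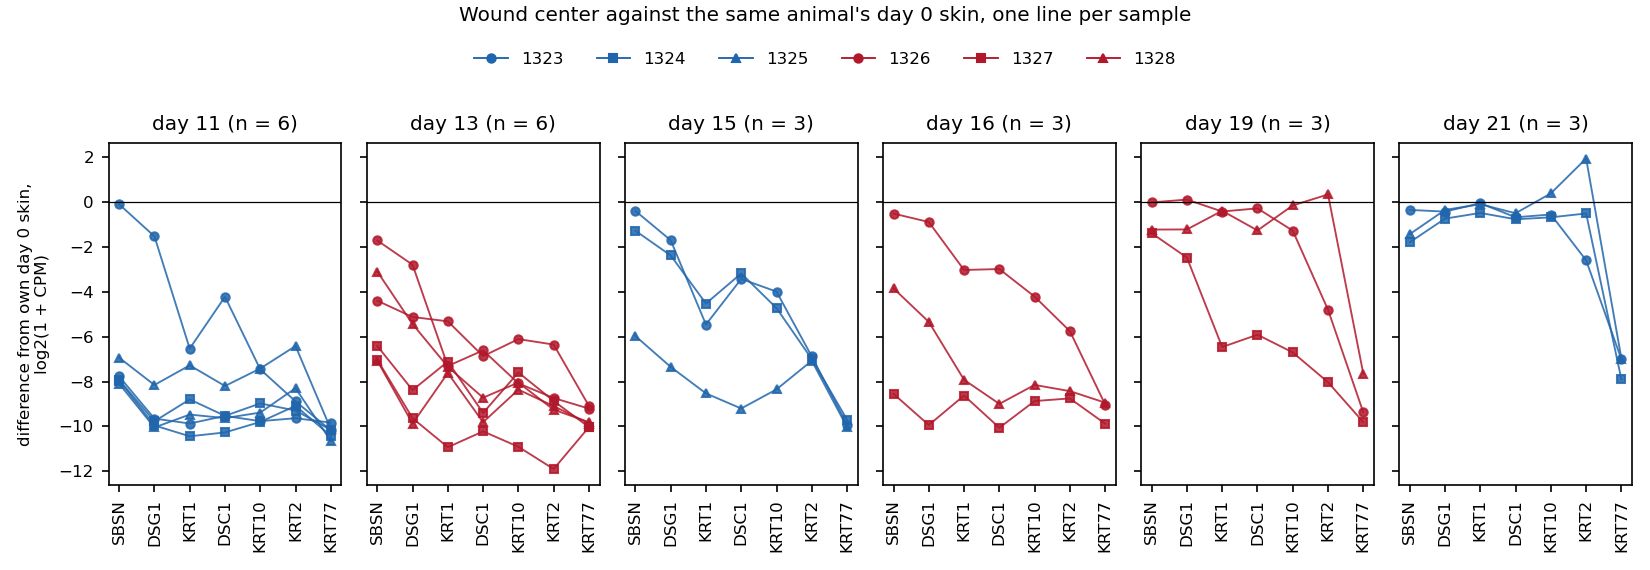
Difference of each gene in each center sample from the day 0 skin of the same animal, in log2(1 + CPM), on days 11, 13, 15, 16, 19 and 21, with genes in the order of their mean distance and one line per sample (colours and markers give the animal). In animals 1323 and 1324 on day 15 the lines slope down from SBSN and DSG1 to KRT2, whereas in animal 1328 on day 19 the difference was -1.22 for SBSN and 0.35 for KRT2. On day 21 KRT77 lies at -6.98 to -7.91 and the other genes between -2.59 and 1.95, the widest spread being that of KRT2.

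A gene's largest possible distance is its own day 0 level, which is lowest for SBSN (9.51) and highest for KRT10 (14.11), and this bears on the place of SBSN. In the center on days 1 to 9, when all genes were low, SBSN was already nearer to day 0 than KRT10 in 41 of 48 samples, and on days 11 to 19 in 20 of 21. DSG1 was nearer than KRT10 in 13 of 48 samples on days 1 to 9 and in 13 of 21 on days 11 to 19. Both DSG1 and SBSN were nearer to day 0 than the other 5 genes in 4 of 48 samples on days 1 to 9, in 11 of 21 on days 11 to 19 and in 0 of 3 on day 21. Within a sample, the level of DSG1 minus that of KRT10 was -2.59 on average in day 0 skin and -3.19 in the center on day 7. It rose to means of -1.08 ± 2.57 (day 13) and -0.70 ± 2.59 (day 16), and it was -3.02 ± 0.40 by day 21 (SD). By state means, DSG1 and SBSN first passed the middle between their lowest center level and day 0 on day 15 (7.82 and 7.21, against a middle of 6.47 and 5.46), were below it on day 16 (6.02 and 4.97) and above it again on day 19. KRT1, KRT10, KRT2 and DSC1 first passed it on day 19. These 6 genes came within 1 unit of day 0 on day 21, and KRT77 reached neither. These days come from different animals, so the day and the animals cannot be told apart.

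Genes of the basal layer were compared in the same center samples, as a list of 8 symbols of which 7 were found (KRT14 was not). Against day 0 skin, 0 of 7 were called on days 11, 15 and 16, with medians of -1.52, -0.20 and -0.09, where 32%, 27% and 27.2% of all genes were called lower. The day 11 value rests on the sample of animal 1323 wound C named above (basal mean 9.60, against 3.39 to 4.67 in the other 5). The medians of days 15 and 16 also cover wounds that differ widely. On day 15 animals 1323, 1324 and 1325 had basal means of 9.31, 9.08 and 6.37, and on day 16 animal 1327 had one of 3.70. These medians do not show that every wound was at the day 0 level. On day 13 and on day 21 (median -0.53) 5 were lower, where 31.2% and 20.7% of all genes were called lower. On day 15 the basal list thus had a median of -0.20 while KRT10 was at -4.35 and KRT2 at -6.85. On day 16 DSG1 followed the basal mean: animals 1326, 1327 and 1328 had basal means of 9.95, 3.70 and 7.85 beside DSG1 of 10.09, 1.51 and 6.47. KRT2 in the same 3 samples stood at 5.30, 3.87 and 4.13. On day 19 DSG1 did not follow it: animal 1327 had a basal mean of 9.52 with DSG1 at 8.98, and animal 1328 one of 8.60 with DSG1 at 10.59. On day 21 DSG1 stood at 10.95 to 11.24 beside basal means of 8.46 to 8.68. Day 0 skin had a basal mean of 9.39 ± 0.21 and the center on day 21 of 8.58 ± 0.11. The part of the number of keratinocytes in these differences was not tested.

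**Figure D5:**
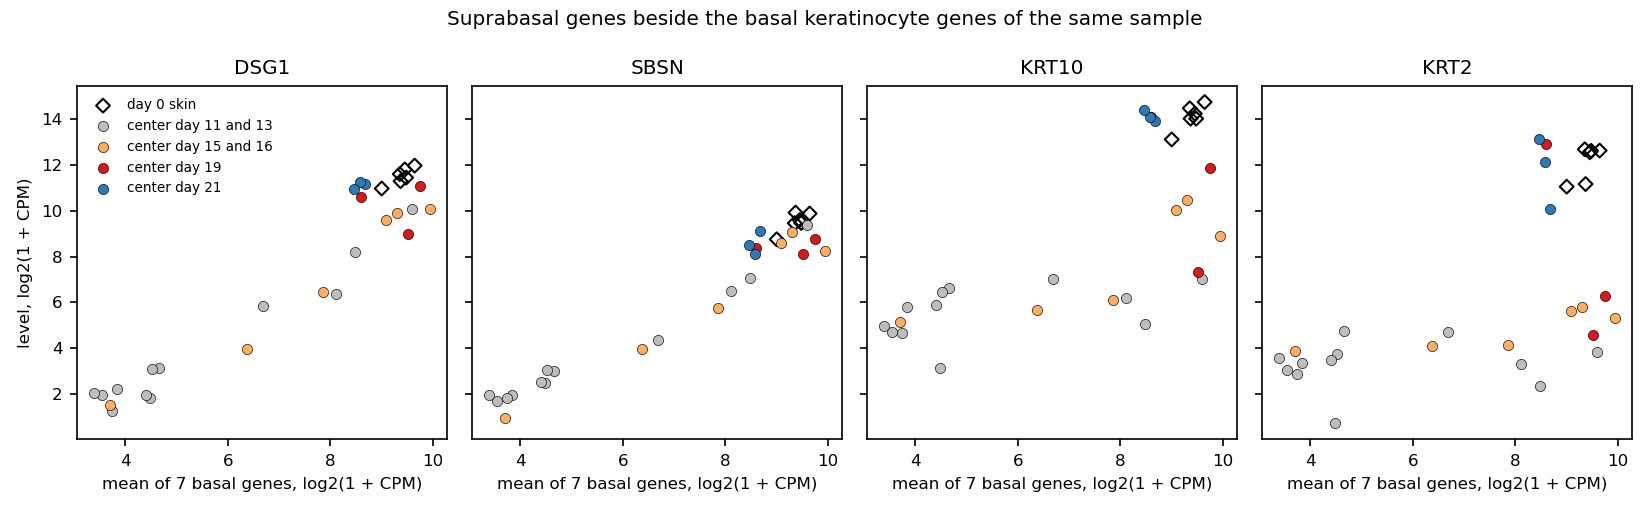
Level of DSG1, SBSN, KRT10 and KRT2, as log2(1 + CPM), against the mean level of 7 basal keratinocyte genes in the same sample, for day 0 skin (open diamonds) and center samples from day 11 on. DSG1 and SBSN are low where the basal mean is low and higher where it is high, with a spread between days. At a basal mean of 8.48 DSG1 is 8.19 (day 13, animal 1326 wound J), and at 8.59 it is 11.24 (day 21, animal 1324). KRT10 and KRT2 stay low in several samples whose basal mean is above 8, such as animal 1327 on day 19 with a basal mean of 9.52, KRT10 at 7.33 and KRT2 at 4.59.

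Other desmosome, differentiation and regulator genes were followed as lists. Of the 13 rows of other desmosome genes, 8 rose and 1 fell in the center from days 11 and 13 to days 19 and 21 (median 2.13, where 17.1% of all genes rose and 18.8% fell), among them DSC3 by 2.51, DSP, which anchors keratin filaments to the desmosome, by 2.84, and PKP1 by 2.70. On day 21, 9 of these 13 were still lower than day 0 and 0 higher (median -0.74, where 20.7% of all genes were called lower and 21% higher), with DSC3 at -1.31, PKP3 at -1.20 and PKP1 at -0.92. DSP has 2 rows in the table, and the second one fell by 0.47 in the first comparison.

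Of 24 tested rows of cornified envelope and late differentiation genes, 19 rose in the center from days 11 and 13 to days 19 and 21 and 0 fell (median 3.13), against the same 17.1% and 18.8% of all genes. The filaggrin relative FLG2 rose by 8.09 and 9.13 in its 2 rows, the protease ASPRV1 by 6.36, RPTN by 7.20 and KLK5, a protease of desquamation, by 5.35. On day 21, 5 of 23 were higher than day 0, close to the 21% of all genes, with KLK7 at 1.34 and ASPRV1 at 0.88. CASP14 has more than 1 row: the row called higher (0.79) changed little between states, at 3.60 in day 0 skin and 4.13 in the day 7 center. The 8 that were lower stood against 20.7% of all genes, with CRNN at -8.09, CST6 at -2.93 and the crosslinking enzyme TGM3 at -2.25. TGM3 had not been low in the center on day 7, at 9.06 against 8.71 in day 0 skin. Of 20 regulators of differentiation 11 rose and 2 fell in the late comparison (median 0.66, with 17.1% and 18.8% of all genes), the transcription factors KLF4 by 2.11, GRHL1 by 2.30 and ZNF750 by 2.51 among them, and on day 21 11 of 20 were lower than day 0 and 1 higher (median -1.05, with 20.7% and 21% of all genes), with KLF4 at -1.38, ZNF750 at -1.62 and TP63 at -1.02. At the edge, 0 of 7 basal, 1 of 13 desmosome, 0 of 24 cornified envelope genes and 0 of 20 regulators were called in the late comparison, where 5.17% of all genes were.

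The genes most like the 7 over the 29 states were found by the mean of Pearson's r of state means with the 7 genes, over 13511 genes. SPTSSB (0.972) and POF1B (0.971) came first, followed by XP32, EXPH5, AADACL2, LIPM, RAB27B, SPTLC3, POU2F3 and KLC3 (0.967). SPTSSB stood at 7.42 in day 0 skin, 0.29 in the center and 5.86 at the edge on day 7, and 6.19 in the center on day 21. The state means share libraries among genes, and the coefficients are descriptions.

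Among the 7 genes themselves the levels of the 72 center samples went together, with a median r of 0.894 (0.658 to 0.985) over the 15 pairs without KRT77 and 0.687 over the 6 pairs with it. In 71 edge samples, without the day 3 sample of animal 1325 wound G, the medians were 0.621 and 0.522. These samples share animals and days.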

How the data were processed

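Messenger RNA of 150 samples was sequenced, and the authors deposited raw counts per gene, not normalized, beside FPKM values. The aligner, the counting tool, strand handling and the genome build are not given in the sources used here. The deposited FPKM values served only to compare levels between genes. Sample titles gave day, location, animal and wound, and day with location set the groups. The 7 genes and the gene lists were chosen with earlier results of these data known.

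Levels were computed as log2(1 + CPM) from the deposited counts and library totals. Differences were tested with the quasi-likelihood test of edgeR 4.0.16 (R 4.3.3) after TMM scaling. Low genes were removed by filterByExpr, set to 10 counts per library and 15 in total. Each comparison was fitted to its own samples, and a Benjamini-Hochberg adjusted p under 0.05 over all remaining genes made a call. The 7 genes passed the filter in all comparisons. Order of return was tested with exact sign-flip permutations over 6 animals. Floors of 3 counts cover counting error only, whereas the SE of a fitted difference includes the spread between samples. Levels, permutations and figures used Python 3.11.15, numpy 2.4.6, pandas 2.3.3, scipy 1.17.1 and matplotlib 3.10.9.

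The labels give the edge and center sample of a wound the same animal and wound, so they are paired: their deviations from the state means had a mean r of 0.275 over 13704 genes, positive in 64 of 72 wounds. The test without the wound as a block was kept as the reference. Alternatives were DESeq2 1.42.0, no filter, library size without TMM, the wound or the animal as replicate block, a single fit to the 150 samples, summed wounds of an animal, other scales and each replicate left out. Leaving out 4 libraries and taking absolute differences for the order of return were added after seeing the data.

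Genes named are the 7, members of the lists (basal layer, other desmosome, cornified envelope, regulators, hair follicle, adipocyte, skeletal muscle) and the 10 genes most like them. A list of wound-edge keratinocyte genes was void, since 3 of its 9 symbols were found. The fits were tested on simulated data with 200 genes changed by 2 on the log2 scale. edgeR found 98.5% of them for day 7 edge against center (14303 genes), 86.5% for day 21 edge against center (14621 genes) and 85% for day 21 center against day 0 skin (15530 genes). For day 21 edge against center 2.26% of the calls of edgeR and 13.2% of those of DESeq2 were of unchanged genes. Photographs and raw reads were not analysed here.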

Additional observations from a re-analysis of the deposited data

Results flagged for a closer look

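The gap of the highest or lowest sample to its nearest neighbour, as a share of the range of its group, exceeded Dixon's 95% limit in 26 of 147 groups of 6 samples, where chance alone gives about 1 in 20 (7.35 groups). The day 1 center sample of animal 1325 wound A was the highest for all 7 genes, with ratios of 0.7873 for KRT1, 0.7782 for KRT10, 0.7202 for KRT2, 0.8743 for KRT77, 0.8285 for DSG1, 0.8247 for DSC1 and 0.7338 for SBSN. The day 3 edge sample of animal 1325 wound G was the lowest for 6 genes, with 0.7926 for KRT1, 0.8052 for KRT10, 0.7885 for KRT2, 0.7551 for DSG1, 0.6965 for DSC1 and 0.8515 for SBSN. The day 11 center sample of animal 1323 wound C was the highest for DSG1 (0.7854), DSC1 (0.7237) and SBSN (0.8307). The remaining 10 were spread over other samples. All were the only gene flagged in their sample, except KRT77 and SBSN, which were both flagged in the day 7 edge sample of animal 1323 wound H. In the edge these were KRT1 on day 1 (animal 1323 wound A lowest, 0.6475), KRT2 on days 7 (1325 wound H lowest, 0.6386), 9 (1328 wound E lowest, 0.6722) and 13 (1326 wound J lowest, 0.6353), KRT77 on days 6 (1326 wound B highest, 0.6266) and 7 (1323 wound H lowest, 0.7448) and SBSN on day 7 (1323 wound H lowest, 0.7436). In the center they were KRT77 on days 3 (1324 wound G highest, 0.6334) and 7 (1325 wound H highest, 0.7623) and DSC1 on day 2 (1327 wound A highest, 0.6263).

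The change from days 11 and 13 to days 19 and 21 differed between center and edge, tested as an interaction in edgeR, for KRT1 (7.22), KRT10 (7.40), KRT2 (7.63) and DSC1 (6.01), all larger in the center.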

How the results depend on the processing

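The number of calls of the 7 genes among 98 tests was 67 for edge against center, and it was 64 with DESeq2, 74 with all 150 samples in one fit, 62 with summed wounds, 68 without TMM, 69 without the filter, 75 without the 4 libraries and 70 with the wound as replicate block. That block gained DSC1 on day 1, DSG1 and SBSN on day 11, KRT1 on day 16 and KRT77 on day 21, lost KRT1 and KRT10 on day 15 and changed no other call. With each replicate number left out the count lay between 55 and 74. On day 1 DESeq2 called 1 of the 7 genes instead of 6. The share of all genes called is given above for only some of these alternatives. Where it is missing, changed counts cannot be read as particular to the 7 genes. For center against day 0 the counts lay between 75 and 82 (76 in the reference) and between 76 and 80 with a replicate left out. For edge against day 0 they lay between 31 and 38 (34 in the reference), with 34 to 35 when a replicate was left out, except in the single fit of all samples, which gave 11, all of KRT77, and the cause was not tested. In the late comparison the center had 7 calls under every alternative, 6 to 7 with an animal left out, and the edge 0 in all. The difference between them had 4 calls, 6 with DESeq2, 4 to 6 with an animal left out and 7 with the animal as replicate block. The order of return had 0 pairs past the threshold, 14 without day 21 and 17 with absolute differences. No direction of a called value was turned by the alternatives listed. Replicate numbers do not mark a wound, and 3 samples per location on the late days, with at most 6 animals, limit what could be called there.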
